A study of Mus musculus with 18 samples.

Results

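The sgRNAs against CASP6 and CASP2 were followed through a pooled CRISPR knockout screen of cell death genes. All sgRNAs that the count table assigns to either gene were taken, 3 per gene and 6 of the 252 in the library. They target 2 of 76 genes, and 24 further sgRNAs are non-targeting. The mouse genes are Casp6 and Casp2 in RefSeq, and the capitals are the spelling of the deposited table. In the working name executioner caspases, only CASP6 of these genes belongs to that class, and caspase-2 is usually set apart from it. No member was chosen by its measured values.

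The cells were sensBa/F3, a derivative of Ba/F3, an interleukin-3-dependent line of early mouse B cells. The tested mice received anti-hHer2 IgA and the control mice PBS (vehicle), 4 each. All 8 mice carried the hCD89 transgene, the human myeloid receptor for IgA, whose promoter is not given in the sources used here. ITPK1-KO cells, a pool of 6 clones deleted for the inositol phosphate kinase ITPK1, and ITPK1-WT cells, which keep it, received the same library in separate transductions and were cultured for 10 days. They were dyed in different colours, mixed and injected into the peritoneum, and viable cells were sorted back after 16 h, and the dye cannot be told apart from the genotype. Each mouse gave 1 library per background, and 1 library per background was made before injection, 18 in all. All mice shared the same 2 transduced pools, so p-values measure the spread between mice within a pool. Animal age and strain are not given in the sources used here.

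Caspases are proteases that cut their substrates after aspartate and carry out or start programmed cell death. Caspase-6 is an executioner: it is activated by cleavage late in apoptosis and cuts nuclear lamins, among other substrates. Caspase-2 acts early. It is activated on the PIDDosome, a platform built from PIDD1 and the adaptor RAIDD, after DNA damage or extra centrosomes, and it can cleave BID and MDM2. An sgRNA that rises under a lethal treatment is read as marking cells that survive better without its target. One that falls is read as marking cells that survive worse. Both readings are relative to the other sgRNAs, and non-targeting sgRNAs, which have no target to lose, also moved here. The readout is the share of sgRNA cassettes in genomic DNA. It carries no measure of how many cells with a given sgRNA had lost the protein.

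The sequences of the 6 sgRNAs are shown because those against CASP6 are not independent of each other in their target site. Each has 20 bases, written 5′ to 3′ as the authors deposited it without the PAM. Capitals mark bases that CASP6 sg-1 and CASP6 sg-3 share on opposite strands.
CASP6 sg-1: TAGCCAGCATGACgtacccg
CASP6 sg-2: gccagagttacctgcgagtc
CASP6 sg-3: GTCATGCTGGCTAccccgac
CASP2 sg-1: aagcagctccgcctatccac
CASP2 sg-2: tattcagcacgtactcccac
CASP2 sg-3: tcaccagctggtagtgtgcc

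The first 13 bases of CASP6 sg-1 are the reverse complement of the first 13 of CASP6 sg-3. Together they cover 27 bases, and their cut positions, 3 bases from the 3′ end of each for Streptococcus pyogenes Cas9, lie 21 bases apart. CASP6 was the only 1 of the 76 genes with sgRNAs that overlap end to end by at least 8 bases. Thus 2 of the 3 CASP6 sgRNAs target the same stretch, while the CASP2 sgRNAs share no such run. The sgRNAs were not placed on the genome, so how far apart the others cut is not known. GC content was 60%, 60% and 65% for CASP6 sg-1, sg-2 and sg-3, and 60%, 50% and 60% for those of CASP2, against a library median of 50%.

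Libraries held 317564 to 808586 reads. A member sgRNA had between 1249 and 8165 reads, so none was limited by low counts. The authors' legend lists 657000 to 2000000 cells sorted per library. All vehicle libraries came from 2000000 cells, and those of IgA mice 5, 7 and 8 from fewer. Levels below are CPM, read counts scaled to a common library size by TMM over all 18 libraries. Between mice of a group, a member sgRNA or gene varied with a coefficient of variation of 0.337% to 5.36%, where reads alone give 0.851% to 2.29%. In all 24 pairs of libraries from the same group the counts differed beyond sampling (chi-square over its degrees of freedom 2.24 or more). Libraries of a group, each from another mouse, were therefore counted as separate replicates. That comparison did not cover the 2 libraries of the same mouse.

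CASP6 was the most abundant target in the library. Its summed sgRNAs ranked first of 76 genes in each of the 18 libraries, ahead of Bmf in every group mean. They held 21926.9 ± 292.0 CPM in ITPK1-KO cells of IgA mice and 22296.8 ± 143.2 CPM in those of vehicle mice (SD, n = 4 each). In ITPK1-WT cells they held 21232.4 ± 787.3 CPM in IgA mice and 21890.0 ± 149.8 CPM in vehicle mice. The median gene stood between 11726 and 11934 CPM across the groups, so CASP6 stood far above the typical target before and after the mice.

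That height came from 2 of its sgRNAs. CASP6 sg-2 was the most abundant sgRNA of all 252 in each library, at 9837 CPM in ITPK1-WT cells of IgA mice and 9879 CPM in those of vehicle mice. It stood at 1.81 ± 0.026 times the average non-targeting sgRNA in IgA mice and 1.76 ± 0.012 times in vehicle mice (SD, n = 4 each). CASP6 sg-3 had rank 4 in every group, at 1.36 ± 0.046 and 1.38 ± 0.014 times. CASP6 sg-1, which overlaps it, lay at 0.731 ± 0.029 and 0.752 ± 0.018 times, among the lower non-targeting sgRNAs. Among all 252 sgRNAs it was near the middle, with 3984 CPM in ITPK1-WT cells of IgA mice and 4228 CPM in those of vehicle mice. The medians over all sgRNAs were 4147 and 4103 CPM there. The share of sg-1 over sg-3 stayed between 0.504 and 0.612 in all 18 libraries. Sharing a target site thus did not go with a shared abundance, and the order was already there before injection, where sg-1 over sg-3 was 0.545 in ITPK1-KO cells and 0.582 in ITPK1-WT cells. The sources used here hold no count of the plasmid library, so cloning, transduction and growth were not separated.

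As a gene, CASP2 stood below CASP6 and still in the upper part of the library, above the median gene. Summed, CASP2 ranked between 4 and 17 of 76 genes over the 18 libraries. Its sg-3 had 1.04 ± 0.034 times the average non-targeting sgRNA in ITPK1-WT cells of IgA mice and 1.09 ± 0.034 times in those of vehicle mice (SD, n = 4 each). The sg-2 lay at 0.898 ± 0.020 and 0.941 ± 0.020 times, and sg-1 at 0.735 ± 0.0052 and 0.726 ± 0.028 times. With 4005 and 4081 CPM, CASP2 sg-1 was near the medians of all sgRNAs in these groups, 4147 and 4103 CPM. In every group the order sg-3, sg-2, sg-1 was the same.

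The first comparison asked whether loss of either caspase alters survival under IgA when ITPK1 is present. CASP2 sgRNAs were slightly scarcer after IgA. Their summed level was 14644, 15183, 14409 and 14093 CPM in ITPK1-WT cells of IgA mice 5 to 8, against 15608, 15332, 15901 and 15112 CPM in those of vehicle mice 1 to 4. In 3 of the 4 IgA mice it lay below all vehicle mice. IgA mouse 6 lay between vehicle mice 4 and 2, so the arms overlapped, as they did for all but 34.2% of genes. The log2 fold change was −0.091 (SE 0.021, 95% interval −0.13 to −0.049), a level 0.939 times that of vehicle mice, with adjusted p = 0.00164 in edgeR's quasi-likelihood test over all 76 genes. By that test 36.8% of all genes were called, 21.1% higher and 15.8% lower, so a call as such was common in this comparison. Leaving out any 1 of the 8 mice kept the call, with values from −0.11 to −0.076. Numbers in the read-file names point to 2 sample sheets, an inference that no label states, with all vehicle mice and IgA mouse 5 on one and IgA mice 6 to 8 on the other. With that sheet as a covariate the value was −0.094 and the call was lost. That fit sets IgA mouse 5 alone against the vehicle mice, so it cannot decide whether the sheet had a part.

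The fall was carried by 2 of the 3 CASP2 sgRNAs. CASP2 sg-2 had 4871, 5087, 4932 and 4691 CPM in IgA mice 5 to 8, against 5438, 5195, 5213 and 5311 CPM in vehicle mice 1 to 4. All IgA mice lay below all vehicle mice, as the arms did not overlap for 22.6% of all sgRNAs in this background. Its log2 fold change was −0.12 (SE 0.031, adjusted p = 0.00297 by edgeR over 252 sgRNAs, of which 27.8% were called and 13.9% lower). CASP2 sg-3 had 5684, 6060, 5516 and 5470 CPM in IgA mice, against 6104, 5996, 6427 and 5948 CPM in vehicle mice. It changed by −0.11 (SE 0.032, adjusted p = 0.00735), with mouse 6 again inside the vehicle range, and it missed the threshold without mouse 3 (adjusted p = 0.0639) or mouse 7 (adjusted p = 0.0594). For CASP2 sg-1 the levels were 4089, 4035, 3961 and 3932 CPM in IgA mice, against 4066, 4142, 4261 and 3854 CPM in vehicle mice. There the arms overlapped fully, and the value was −0.033 (SE 0.036, 95% interval −0.11 to 0.040, adjusted p = 0.531).

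Non-targeting sgRNAs, which cut no gene, moved the same way in these libraries. Their median log2 fold change was −0.059, and 8 of 24 were called lower and 1 higher. Of the 24, 1 lay below CASP2 sg-2, 3 below CASP2 sg-3 and 17 below CASP2 sg-1. On a scale set by the summed non-targeting sgRNAs, CASP2 stood at −0.040 (SE 0.019, adjusted p = 0.0909 by edgeR), no longer past the threshold. Per mouse on this scale, the log2 ratio of CASP2 to the average non-targeting sgRNA was −0.18, −0.13, −0.17 and −0.18 in IgA mice 5 to 8, against −0.11, −0.13, −0.092 and −0.15 in vehicle mice 1 to 4. The difference of −0.042 had p = 0.0857 in an exact two-sided permutation test of 4 against 4 mice (adjusted p = 0.229 over 4 tests, smallest possible p = 0.0286). The call for CASP2 in ITPK1-WT cells was thus lost under this scaling, where the value also shrank in size. It was lost under the sheet covariate too, but there the value did not shrink and rests on IgA mouse 5 alone. That second loss therefore does not show a smaller effect.

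A ratio of 2 members within a library needs no such scaling. The ratio of CASP2 to CASP6 reads had a mean log2 of −0.54 ± 0.0099 in ITPK1-WT cells of IgA mice and −0.50 ± 0.023 in those of vehicle mice (SD, n = 4 each). All IgA mice lay below all vehicle mice, by −0.043 on average, with exact permutation p = 0.0286, the smallest that 4 against 4 allows. Over the 14 ratios computed between the members, chosen after the data were seen, the adjusted p was 0.286. The separation was narrow, since IgA mouse 8 and vehicle mouse 4 were almost tied, at −0.5284 and −0.5276. How often ratios of other genes separate the arms was not computed. In ITPK1-KO cells the same ratio had a mean log2 of −0.57 ± 0.038 in IgA mice and −0.54 ± 0.014 in vehicle mice (SD, n = 4 each). There 2 of 4 IgA mice lay below all vehicle mice, and the difference was −0.024 (exact permutation p = 0.314).

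CASP6 was not called in ITPK1-WT cells. Its summed level was 21454, 22189, 20960 and 20326 CPM in IgA mice 5 to 8, against 21874, 21796, 22106 and 21784 CPM in vehicle mice 1 to 4. The vehicle mice lay close together, while 3 IgA mice were below all of them and mouse 6 was above all of them. The log2 fold change was −0.049 (SE 0.025, 95% interval −0.10 to 0.0030, adjusted p = 0.142 by edgeR). Without mouse 6 it was −0.067 with adjusted p = 0.00539, and on the non-targeting scale it was 0.0023 with adjusted p = 0.916. Mouse 6 gave 2000000 sorted ITPK1-WT cells and mouse 8, the lowest, 657000, and the part of the sort size in these values was not tested.

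No CASP6 sgRNA was called in ITPK1-WT cells. CASP6 sg-1 changed by −0.089 (SE 0.037, adjusted p = 0.0633) and CASP6 sg-3 by −0.074 (SE 0.031, adjusted p = 0.0676), neither past the threshold. Without mouse 6 both passed (adjusted p = 0.00630 and 0.00957), and sg-1 also without mouse 4 (adjusted p = 0.0497). CASP6 sg-2, which does not overlap sg-1 or sg-3, stood at −0.012 (SE 0.031, 95% interval −0.075 to 0.051). Of the 24 non-targeting sgRNAs, 8 lay below sg-1, 10 below sg-3 and 18 below sg-2, so the overlapping sgRNAs stood near the middle of these controls. The log2 ratio of sg-2 to sg-3 was 0.41 ± 0.047 in IgA mice and 0.34 ± 0.020 in vehicle mice (SD, n = 4 each), a difference of 0.065 with exact permutation p = 0.0571 and adjusted p = 0.286. Between the overlapping sgRNAs, sg-1 over sg-3, the difference was −0.016 (exact permutation p = 0.800). No difference between sgRNAs of a gene passed after adjustment.

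The second comparison was the same contrast in ITPK1-KO cells. CASP2 stood at 14969, 14905, 14742 and 14518 CPM in IgA mice 5 to 8, against 15239, 15383, 15392 and 15129 CPM in vehicle mice 1 to 4. All IgA mice lay below all vehicle mice in CPM, as the arms did not overlap for 21.1% of all genes in this background. The log2 fold change was −0.045 (SE 0.016, 95% interval −0.078 to −0.012), and it missed the threshold with adjusted p = 0.0669 by edgeR, where 13.2% of the 76 genes were called, 7.89% higher and 5.26% lower. Without mouse 1 or without mouse 5 it passed (adjusted p = 0.0467 and 0.0455), and without mouse 2 it had adjusted p = 0.183.

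Among the CASP2 sgRNAs in ITPK1-KO cells, sg-2 stood at −0.064 (SE 0.031, adjusted p = 0.205) and sg-3 at −0.052 (SE 0.030, adjusted p = 0.296). The sg-1 lay at −0.010 (SE 0.036, adjusted p = 0.899). The order of the sgRNAs was thus that seen in ITPK1-WT cells, in other libraries of the same 8 mice. None was called, where 10.4% of 251 sgRNAs were, 5.58% higher and 4.78% lower. For CASP2 sg-2 and sg-3 the arms overlapped, as for all but 11.9% of sgRNAs. The non-targeting median was −0.012 in this background. On the non-targeting scale the exact permutation test gave a CASP2 difference of −0.032 with p = 0.114 (adjusted p = 0.229). The arms of CASP2 overlapped on that scale. Vehicle mouse 4 had a log2 ratio of −0.1851, below IgA mice 5, 6 and 7 at −0.1707, −0.1803 and −0.1848.

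CASP6 in ITPK1-KO cells held 21624, 21730, 22171 and 22182 CPM in IgA mice 5 to 8, against 22293, 22485, 22138 and 22271 CPM in vehicle mice 1 to 4. IgA mice 5 and 6 were below all vehicle mice, and mice 7 and 8 lay within their range. The log2 fold change was −0.022 (SE 0.013, 95% interval −0.049 to 0.0043, adjusted p = 0.232 by edgeR). Of its sgRNAs, sg-3 had the lowest value at −0.065 (SE 0.026, adjusted p = 0.107), and it passed without mouse 8 (adjusted p = 0.0208). The others lay near 0, with sg-1 at −0.010 (SE 0.034) and sg-2 at 0.0055 (SE 0.023). Here the overlapping sg-1 and sg-3 lay apart, though their ratio did not differ between arms beyond the spread between mice (0.053, exact permutation p = 0.371).

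The third comparison asked whether the IgA effect differed with ITPK1, in a fit of all 16 recovered libraries. For CASP2 the effect in ITPK1-KO cells minus that in ITPK1-WT cells was 0.040 (SE 0.027, 95% interval −0.014 to 0.094, adjusted p = 0.534 by edgeR). For CASP6 it was 0.020 (SE 0.029, 95% interval −0.038 to 0.079, adjusted p = 0.764). Of all genes, 6.58% were called, 2.63% higher and 3.95% lower. The call for CASP2 in ITPK1-WT cells and its absence in ITPK1-KO cells were therefore not shown to differ. Differences above 0.094 for CASP2 and 0.079 for CASP6 lie outside these intervals. No member sgRNA was called either, where 3.97% of sgRNAs were, 1.59% higher and 2.38% lower. The largest value of the 6 was 0.072 for CASP6 sg-1 (SE 0.051, adjusted p = 0.718).

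Between backgrounds, both genes were near equal in abundance. In IgA mice CASP6 stood 0.045 higher in ITPK1-KO cells, on the log2 scale, than in ITPK1-WT cells (SE 0.020, 95% interval 0.0042 to 0.086) and did not pass (adjusted p = 0.0686 by edgeR). Without mouse 6 it passed at 0.069 (adjusted p = 0.00212), and on the non-targeting scale it was 0.0049 (adjusted p = 0.819). Within a mouse, it was higher in ITPK1-KO cells in 3 of 4 IgA mice, and in 2 of 4 on the non-targeting scale. In vehicle mice the difference was 0.025 (SE 0.020, adjusted p = 0.317), and all 4 mice had the higher level in ITPK1-KO cells, against 3 of 4 on the non-targeting scale. In vehicle mouse 3 the log2 difference was only 0.0020. The share of all genes with the same direction in all 4 mice was not computed. CASP2 differed by 0.019 in IgA mice (SE 0.019, adjusted p = 0.423) and by −0.022 in vehicle mice (SE 0.019, adjusted p = 0.336). The background itself moved many targets: in IgA mice 44.7% of genes were called, 19.7% higher and 25% lower. In vehicle mice 47.4% were called, 22.4% higher and 25% lower, and neither CASP2 nor CASP6 was among them.

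CASP6 sg-1 was the member sgRNA called between backgrounds. In IgA mice 5 to 8 it had 4241, 4202, 4556 and 4112 CPM in ITPK1-KO cells, against 4019, 4270, 3795 and 3850 CPM in ITPK1-WT cells. Mice 5, 7 and 8 had the higher level in ITPK1-KO cells, and mouse 6 had the lower. The difference was 0.10 (SE 0.036, adjusted p = 0.0199 by edgeR), where 34.9% of sgRNAs were called, 16.7% higher and 18.3% lower, with 5 of 24 non-targeting sgRNAs among the higher ones. Without mouse 7 it was 0.040 (adjusted p = 0.508), and on the non-targeting scale 0.060 (adjusted p = 0.227). The overlapping CASP6 sg-3 differed by 0.040 (SE 0.028, adjusted p = 0.302), and in vehicle mice sg-1 differed by 0.029 (SE 0.036, adjusted p = 0.573). No member sgRNA was called in vehicle mice, where 31.7% of sgRNAs were, 13.9% higher and 17.9% lower.

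Before injection, with 1 library per background and no test, CASP6 sgRNAs took 2.18% of reads in ITPK1-KO cells (exact binomial 95% interval 2.14% to 2.22%) and 2.11% in ITPK1-WT cells (2.07% to 2.15%). CASP2 took 1.52% (1.49% to 1.56%) and 1.59% (1.56% to 1.63%). These intervals cover counting error only, since reads carry no molecular identifiers. Relative to the non-targeting sgRNAs, CASP6 was 0.066 higher in ITPK1-KO cells on the log2 scale and CASP2 was 0.041 lower. The median over all genes was 0.021, with the middle 50% of genes between −0.016 and 0.086, so CASP6 lay within that middle range and CASP2 below it.

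The change over 16 h in the mice was small for both genes on the scale of the non-targeting sgRNAs. With the median non-targeting sgRNA of the same library as reference, CASP6 had changed on the log2 scale by 0.0071 ± 0.025 in ITPK1-KO cells of IgA mice and by 0.025 ± 0.028 in those of vehicle mice (SD, n = 4 each). In ITPK1-WT cells it had changed by 0.049 ± 0.038 in IgA mice and 0.051 ± 0.020 in vehicle mice. CASP2 had changed by −0.050 ± 0.017 in ITPK1-KO cells of IgA mice and −0.013 ± 0.030 in those of vehicle mice. In ITPK1-WT cells the CASP2 values were −0.061 ± 0.025 and −0.032 ± 0.038. Without the non-targeting reference CASP2 stood at −0.13 and CASP6 at −0.022 in ITPK1-WT cells of IgA mice, and CASP2 at 0.0018 in ITPK1-KO cells of vehicle mice, so size and sign depended on the scale. With the reference, the median gene stood at −0.0029 in ITPK1-KO and at 0.076 in ITPK1-WT cells of IgA mice, and at −0.022 and 0.029 in vehicle mice. CASP2 lay below the median gene in 3 of these 4 groups and above it in ITPK1-KO cells of vehicle mice. The starting libraries have no replicate. By the inferred sheets they go with mice 6 to 8 and not with the vehicle mice, and the part of the sheet in these changes was not tested.

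The genes around both caspases give the setting. Of 9 names listed for other caspases, 7 match a gene name of the library. Of these 7, 2 were called in ITPK1-WT cells under IgA, both higher, beside 36.8% of all genes called and 21.1% higher. These were Casp9, the initiator of the apoptosome (0.052, SE 0.018, adjusted p = 0.0223), and Casp11, an inflammatory caspase (0.094, SE 0.034, adjusted p = 0.0329). The median of the 7 was 0.017, beside −0.0033 over all genes, so CASP2 and CASP6 stood at the low end of the family, where the others ran from −0.035 to 0.094. Casp8, the initiator at death receptors, had −0.032 (adjusted p = 0.181), Casp1, which activates interleukin-1 beta, −0.024 (adjusted p = 0.386) and Casp12 0.017 (adjusted p = 0.423). Between backgrounds in IgA mice, 2 of the 7 were higher in ITPK1-KO cells (Casp12 0.088 and Casp1 0.083) and 2 lower, where 44.7% of all genes were called. In vehicle mice 1 was higher (Casp12, 0.079) and 2 lower, where 47.4% were called, so these counts were near those of the whole library.

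Of 28 further apoptosis genes listed, 11 are in the library. In ITPK1-WT cells 2 rose and 2 fell under IgA, with a median of −0.021, a share near the 36.8% called over all genes. APAF1, the apoptosome scaffold, rose by 0.070 and Bbc3, which encodes the BH3-only protein PUMA, by 0.083 (adjusted p = 0.00454 and 0.00164 by edgeR). Bid, a BH3-only protein that caspases cleave, fell by 0.061 (adjusted p = 0.0116), and Pmaip1, which encodes the BH3-only protein NOXA, fell by 0.060 (adjusted p = 0.0159). Both falls were near the non-targeting median of −0.059, and on the non-targeting scale 2 of all 76 genes were called lower. In ITPK1-KO cells none of the 7 caspases or 11 other genes was called, where 13.2% of all genes were called and 21 of the 76 had an unadjusted p under 0.05. Between backgrounds in IgA mice, 3 of the 11 were higher in ITPK1-KO cells (Bad 0.094, Birc2 0.087 and APAF1 0.071) and 3 lower (Bbc3 −0.43, Bax −0.18 and Bak1 −0.052). Of all genes 44.7% were called there, 19.7% higher and 25% lower. In vehicle mice the same 3 were higher (Bad 0.082, Birc2 0.066 and APAF1 0.11), and Bbc3 (−0.37) and Bax (−0.18) were lower. There 47.4% of all genes were called, 22.4% higher and 25% lower, so such calls were common in the whole library.

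Across the 18 libraries, the gene most like CASP2 in log2 level was Commd4, a COMM domain protein, with Pearson's r of 0.836. Fadd, the death receptor adaptor, and Pmaip1 followed with 0.698 and 0.690. Commd4 changed under IgA by −0.51 (SE 0.026) in ITPK1-WT cells, against −0.091 for CASP2, so the likeness is one of direction over the libraries and not of size. For CASP6 the nearest were Eif5b, a translation factor, at 0.633, Birc2, which encodes the ubiquitin ligase cIAP1, at 0.580 and Zbp1, a nucleic acid sensor, at 0.572. The most opposite genes were Ltbr, which encodes the lymphotoxin beta receptor, for CASP2 (−0.925) and Spata2, a partner of the deubiquitinase CYLD, for CASP6 (−0.660), and both are larger in size than the positive values. CASP2 and CASP6 had r = 0.466 with each other. All points share the library, its scaling and the arm, so these values describe the libraries and no p is given.

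In the authors' deposited table of MAGeCK results, no member sgRNA had an FDR under 0.05 in either background. The lowest log2 fold change of a member in that table was −0.067 for CASP2 sg-2 in ITPK1-KO cells (FDR 0.950). In ITPK1-WT cells it was −0.055 for CASP2 sg-2 and −0.054 for CASP2 sg-3, both at an FDR of 0.998 in the authors' deposited table. By MAGeCK, which was not rerun here, CASP2 sg-1 stood at 0.025 and CASP6 sg-2 at 0.049 in ITPK1-WT cells. For these edgeR gave −0.033 and −0.012. The part of the normalization in such differences was not tested. The authors' deposited table calls 12 sgRNAs in ITPK1-KO cells and 0 of 252 in ITPK1-WT cells, where edgeR called 70 and 96 had an unadjusted p under 0.05.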

How the data were processed

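The authors deposited a table of raw read counts for each sgRNA in the 18 libraries. The design text of the series says that mismatched reads were dropped after alignment and that MAGeCK RRA 0.5.6 scored the sgRNAs. Which aligner was used is not given in the sources used here. For each background the deposited MAGeCK table holds log2 fold changes of IgA over vehicle with a p-value and FDR. The 4 columns of joined per-sample values in those files were not used. The arm of each mouse and the cells sorted (another unit, per the file headers) come from the authors' deposited sample legend, matched to samples by read-file name. Count columns were matched by that legend's sample number.

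The tests used R 4.3.3, edgeR 4.0.16, limma 3.58.1 and DESeq2 1.42.0. Features with a mean of at least 10 reads were kept, libraries were scaled by TMM on the sgRNA table, and glmQLFit and glmQLFTest were run per sgRNA and on counts summed per gene, with Benjamini-Hochberg adjustment over all features and a threshold of 0.05. SEs are the log2 fold change over the root of F. Each background was fitted apart for the IgA effect, and 16 libraries together otherwise. Changes from before injection used 0.5 added reads. Exact permutation tests used the 70 splits of 8 mice. The procedure was tested on simulated counts with the same spread for all sgRNAs and no shift of the non-targeting ones. Those counts therefore do not cover the movement of non-targeting sgRNAs seen in the data. All 76 genes were matched to RefSeq names (GRCm38.p6), 70 by symbol and 6 by synonym. The files name no build, so no coordinates are given.

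The members, the lists and the tests were chosen with earlier results of these data known. Genes named are both members, the caspases and the called genes of a written list of apoptosis genes, and the 3 most like each member by Pearson's r. Some genes of that list are not reported here by name, though counts include them. Both libraries of a mouse come from the same animal, so mouse numbers pair them. Their deviations from the group means correlated with r from −0.083 to 0.26 (238 sgRNAs averaging 500 reads or more). Depth ran from 317564 to 808586 reads, and the binomial intervals before injection cover counting error only, while those of edgeR's fits rest on the spread between mice. Ltbr and Spata2 were named after their values were seen.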

Additional observations from a re-analysis of the deposited data

How the results depend on the processing

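Scaled to the non-targeting sgRNAs, CASP2 in ITPK1-WT cells under IgA lost its call (−0.040), CASP6 there turned to 0.0023 and by the exact permutation test to 0.00088 (adjusted p = 1), where CASP2 stood at −0.042 with adjusted p = 0.229. On that scale the difference of the IgA effects for CASP6 was −0.010 and CASP2 in ITPK1-KO minus ITPK1-WT cells of IgA mice was −0.022. It called 34 genes higher and 2 lower in ITPK1-WT cells, against 16 and 12, and 11 higher in ITPK1-KO cells, against 6. Between backgrounds it called 11 higher in vehicle mice, against 17, and 6 higher and 30 lower in IgA mice, against 15 and 19, and 1 higher for the difference of the IgA effects, against 2. Adjusted for the sample sheet inferred from read-file numbers, where mouse 5 is the IgA mouse that shares a sheet with the vehicle mice, CASP2 in ITPK1-WT cells stood at −0.094 (adjusted p = 0.0784), with 7 genes higher and 3 lower, and 2 higher in ITPK1-KO cells. By the mean of sgRNA log2 CPM with limma, CASP6 passed between backgrounds in IgA mice (0.058, adjusted p = 0.0389), and 1 gene was higher for the difference of the IgA effects.

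With the mouse as a replicate block, which pairs both libraries of an animal, no call or direction changed for either gene or its sgRNAs (difference of the IgA effects 0.040 for CASP2, adjusted p = 0.502, and 0.021 for CASP6, adjusted p = 0.790). DESeq2's size factors, DESeq2's Wald test, no filter on low counts and a joint fit left both genes on the same side of the threshold with the same sign. With each mouse left out, the IgA effect of CASP6 ran from −0.067 to −0.029 in ITPK1-WT cells, the difference of the IgA effects from −0.0082 to 0.047, and its difference between backgrounds in IgA mice from 0.019 to 0.069. Genes called in ITPK1-WT cells ran from 10 to 20 higher and 7 to 12 lower (fewest without mouse 7), and those higher for the difference of the IgA effects from 1 to 2. CASP2 ran from −0.052 to −0.035 in ITPK1-KO cells. Without a non-targeting reference, the change from before injection was −0.13 for CASP2 and −0.022 for CASP6 in ITPK1-WT cells of IgA mice, and 0.0018 for CASP2 in ITPK1-KO cells of vehicle mice. The causes were not tested. 

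None of the sgRNA values that changed sign was past the threshold before or after. On the non-targeting scale, CASP2 sg-1 turned to −0.014 for the difference of the IgA effects, 0.0045 in ITPK1-KO and 0.019 in ITPK1-WT cells under IgA, and −0.027 between backgrounds in IgA mice. CASP6 sg-1 turned to 0.0040 in ITPK1-KO cells. CASP6 sg-2 turned to −0.019 for the difference, 0.039 in ITPK1-WT cells and −0.015 between backgrounds in IgA mice, and CASP6 sg-3 to −0.028 for the difference and −0.00083 between backgrounds. Adjusted for the sheet, CASP2 sg-1 was 0.0039 and CASP6 sg-2 −0.031 in ITPK1-KO cells, and CASP6 sg-2 0.015 in ITPK1-WT cells. By DESeq2's Wald test CASP2 sg-1 was 0.00080 between backgrounds in vehicle mice and CASP6 sg-3 −0.00015 for the difference. With each mouse left out, the difference of the IgA effects ran from −0.017 to 0.040 for CASP2 sg-1, −0.013 to 0.032 for CASP6 sg-2 and −0.045 to 0.034 for CASP6 sg-3. Between backgrounds in vehicle mice it was −0.026 to 0.031 for CASP2 sg-1 and −0.013 to 0.040 for CASP2 sg-2, and in IgA mice −0.045 to 0.018 for CASP2 sg-3 and −0.0064 to 0.068 for CASP6 sg-3. Under IgA in ITPK1-KO cells it was −0.047 to 0.0084 for CASP6 sg-1 and −0.0063 to 0.018 for CASP6 sg-2, and in ITPK1-WT cells −0.023 to 0.0034 for CASP6 sg-2.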
